A study of Diospyros lotus with 24 samples.

Results

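Small RNA loci with almost no mRNA were examined in the buds of Diospyros lotus, a persimmon whose trees are either male or female. The unit was the contig, a stretch of sequence from the authors' de novo assembly. A contig belonged to the class when it held at least 500 bud small RNA counts over both parents, when its father over mother ratio lay between 0.5 and 2, and when it had at most 10 mRNA counts over 19 bud libraries. The ratio was taken on CPM, counts scaled to 1000000 counts per library. In all, 2394 of 421126 contigs met these limits. Members were thus chosen by measured values, their small RNA counts, the parents' ratio and their mRNA counts, so the abundance, the balance of the parents and the low mRNA describe the class and are no findings about it.

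The study asks about a small RNA of the Y chromosome that determines sex in persimmons. The trees belonged to the KK family, the offspring of a male and a female Kunsenshi tree, and no tree was given a treatment. Bud mRNA came from 9 male progeny, 9 female progeny, the male parent and the female parent, with 1 library per tree, and bud small RNA from the same 2 parents, with 1 library each. All were mixed buds at early differentiation of the flower primordia. The buds were collected on 2 dates that the labels tie to no library, so sex and date cannot be told apart. The small RNA libraries held 19315399 counts in the mother and 14168901 in the father, and 19 mRNA libraries held 3527282 to 15314430 counts. Male progeny replicate 5 held 387 counts in all, 0 of them on the class, and was left out of the mRNA sums. The files used here hold no gene names or sequences for the contigs, and 0 of their IDs matched the 27971 annotated genes of a reference assembly, so the tissue could not be checked against markers.

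Plants make several kinds of small RNA. MicroRNAs are cut from transcripts that fold into hairpins and guide the cleavage or repression of matching mRNAs. Small interfering RNAs come from double-stranded RNA, often from transposons and other repeats, and many of these direct DNA methylation. Some of their precursors, but not all, are made by a plant-specific RNA polymerase, are short-lived and lack the poly(A) tail by which mRNA is often purified. A locus of that kind can give many small RNAs and next to no mRNA. The files hold neither read lengths nor sequences, so the contigs could not be sorted into these kinds.

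Loci of the class were short, carried dense small RNA and together held 10.4% of the bud small RNA counted on contigs. Their lengths ran from 200 bases, the shortest in the assembly, to 759, with a median of 274 and quartiles of 232 and 335. All 220094 contigs with at most 10 mRNA counts had a median of 247 bases and a maximum of 910. Shortness was thus not particular to the class. By length, 910 members (38.0%) had 200 to below 250 bases, 589 had 250 to below 300 and 602 had 300 to below 400. Another 272 members had 400 to below 600 and 21 members had 600 or more. They summed to 709955 bases, or 0.293% of the assembly. On these bases lay 3491491 of 33484300 small RNA counts, or 10.4% (exact binomial 95% interval 10.42% to 10.44%). All shares of small RNA given here are of counts on contigs, so reads that matched no contig are not in the total. Their share of the small RNA was 35.6 times their share of the bases, which follows in large part from the floor of 500 counts. All intervals given here cover counting error alone, and reads were not counted by molecular identifiers.

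A median member had 801 small RNA counts over both parents, with quartiles of 611 and 1280. Per kb of contig the median was 2945 counts (order-statistic 95% interval 2855 to 3032), the quartiles 2199 and 4660, and the range 820 to 271442. All contigs of the table had a median of 12.9 counts per kb. The 220094 contigs with at most 10 mRNA counts had a median of 10.5 counts per kb, so a typical contig with low mRNA was not dense in small RNA. At 200 to below 250 bases their upper decile was 203 counts per kb, against 283 for contigs with over 10 mRNA counts. It was the higher at 250 to below 300 bases (270 against 241) and at 300 to below 400 (242 against 156). The same held at 400 to below 600 bases (196 against 127) and at 600 to below 1000 (201 against 111). The members were 1.09% of these 220094 contigs and held 41.2% of their small RNA.

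**Figure D1:**
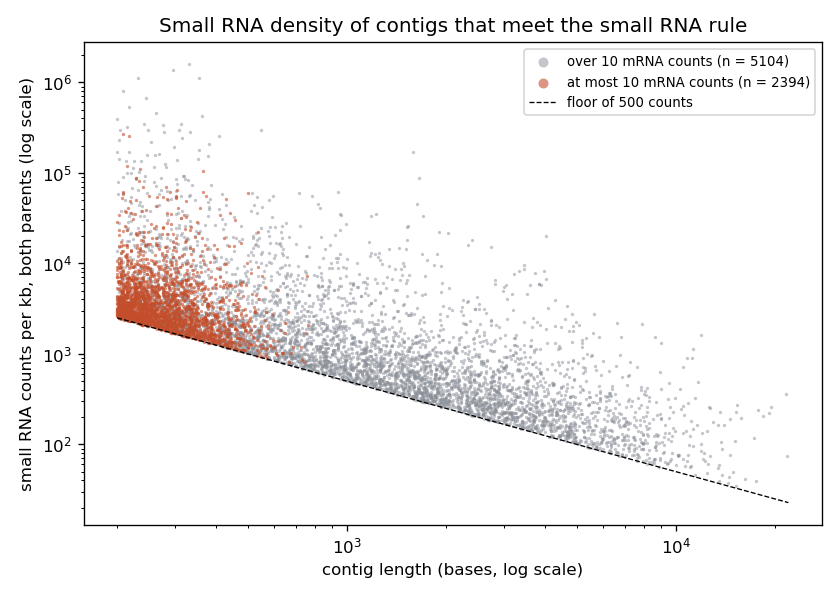
Small RNA counts per kb, summed over both parents, against contig length in bases, both on log scales, for contigs that meet the small RNA limits. The 2394 contigs with at most 10 mRNA counts sit at 200 to 759 bases, the 5104 with over 10 mRNA counts reach 21792 bases, and the dashed line is the floor of 500 counts.

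Counts were spread unevenly over the class. The 333 members of highest count, 13.9% of the class, held 50% of its small RNA, and the 10 of highest count held 9.09%. At the other end, 1534 members (64.1%) had 500 to below 1000 counts each and held 29.9%. Length hardly went with count: the median length was 269 bases at 500 to below 1000 counts and 289 bases for the 39 members with at least 10000. The density therefore rose with count, from a median of 2407 to 53807 per kb.

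**Figure D2:**
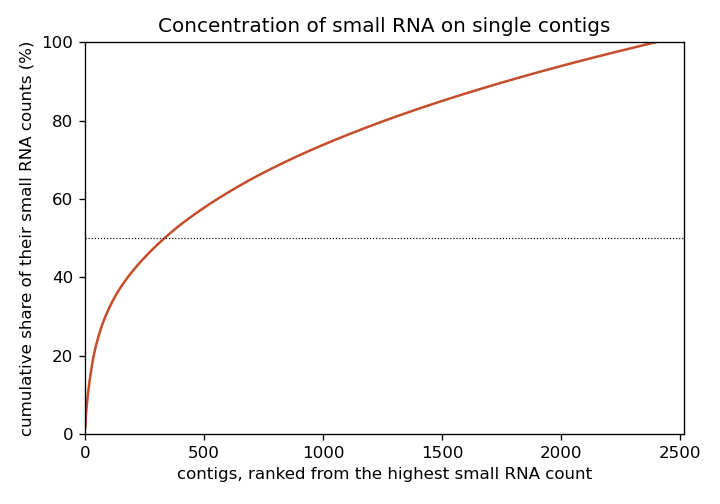
Cumulative share of the class's small RNA counts, in percent, over its contigs ranked from the highest count. The curve crosses 50%, the dotted line, at 333 contigs and stands at 73.9% at 1000.

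The member richest in small RNA by count and per kb was Contig229788DeNovoAssembly, 208 bases long. It had 23004 counts in the mother and 33456 in the father, or 1191 and 2361 CPM. That is 271442 counts per kb and 0.169% of all bud small RNA counts. Its father over mother ratio of 1.98 (exact conditional 95% interval 1.95 to 2.02) was also the highest in the class, and the interval reached past the limit of 2. It had 6 mRNA counts: 2 in male progeny replicate 1, 2 in female progeny replicate 9, and 1 each in female progeny replicates 2 and 4.

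Contig260268DeNovoAssembly, 218 bases long, came next by both measures, with 28675 counts in the mother and 26598 in the father and a ratio of 1.26 (1.24 to 1.29). Its 253546 counts per kb stood against 1 mRNA count, in male progeny replicate 1. In these 2 contigs the father had the higher CPM. In the other 3 of the 5 most counted members the mother had it.

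Contig21765DeNovoAssembly, 364 bases long, had 24658 counts in the mother and 13968 in the father, a ratio of 0.772 (0.756 to 0.788), at 106115 counts per kb. Its 8 mRNA counts fell as 2 each on 4 libraries, female progeny replicates 3 and 9 and male progeny replicates 6 and 8. Contig404583DeNovoAssembly, 500 bases long, had 18488 and 11398 counts, a ratio of 0.840 (0.821 to 0.860), at 59772 per kb. Its 6 mRNA counts all lay in females, 1 of them in the female parent. Both were far denser than the median member.

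Contig332746DeNovoAssembly, 215 bases long, had 17670 counts in the mother and 8063 in the father, a ratio of 0.622 (0.606 to 0.639), at 119688 per kb. Of its 9 mRNA counts, 5 lay in male progeny replicate 6, the deepest mRNA library. Contig338009DeNovoAssembly, 234 bases long and the fourth in density at 109577 per kb, had 17051 and 8590 counts, a ratio of 0.687 (0.669 to 0.705). Its 7 mRNA counts included 2 in each parent, so this locus had mRNA reads in the trees that gave the small RNA.

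The 3 longest members were less dense than these. Contig304202DeNovoAssembly, of 759 bases, had 1015 counts in the mother and 575 in the father, 2095 per kb. Contig124419DeNovoAssembly, of 758 bases, had 3773 and 1755 counts, 7293 per kb. Contig125711DeNovoAssembly, of 749 bases, had 820 and 455 counts, 1702 per kb. The mother had the higher CPM in all 3, at ratios of 0.772 (0.696 to 0.856), 0.634 (0.599 to 0.671) and 0.756 (0.673 to 0.849), and their mRNA counts of 9, 10 and 10 were at or just under the ceiling.

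Of the 106 members with exactly 10 mRNA counts, the 3 richest in small RNA ranked among the most counted of the class. Contig370775DeNovoAssembly, 428 bases long, had 14596 and 7367 counts in mother and father. Contig58093DeNovoAssembly, 357 bases long, had 9241 and 5301. Contig413865DeNovoAssembly, 227 bases long, had 3530 and 4472, and was the sole one of the 3 with the father ahead, at a ratio of 1.73 (1.65 to 1.81). Their mRNA counts were scattered over 7, 4 and 7 libraries.

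The limits cut through a continuum. At the floor stood Contig155073DeNovoAssembly with 500 counts and, just outside, Contig120820DeNovoAssembly with 1 count fewer. There were 551 members with 500 to below 600 counts, and 774 contigs with 400 to below 500 that met the other limits. At the lower ratio Contig360181DeNovoAssembly was inside at 0.5002 and Contig342611DeNovoAssembly outside at 0.4995, and above the upper ratio Contig370169DeNovoAssembly was nearest at 2.02. Just past the mRNA ceiling, 73 contigs had 11 mRNA counts, the richest being Contig355066DeNovoAssembly with 9942 small RNA counts. With a ceiling of 10 mRNA counts per kb in place of 10 counts the class had 790 members and 2.91% of the small RNA, and with a floor of 250 counts it had 5528 members and 13.7%.

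The balance of the parents leaned to the mother. Summed over the class, the mother had 2139631 counts, 11.1% of her library, and the father 1351860, 9.54% of his. The pooled father over mother ratio was 0.861 (0.859 to 0.863), the median over members 0.841, and the quartiles 0.714 and 1.01. The interval of a member's own ratio lay wholly below 1 in 1304 members (54.5%), wholly above 1 in 339 (14.2%), and spanned 1 in 751. Beside the class stood the 5104 contigs that met the same small RNA limits with over 10 mRNA counts. Their interval lay below 1 in 51.8% and above 1 in 17.4%, close to the shares in the class. Their median ratio of 0.865 was close too, but their pooled ratio of 1.086 (1.085 to 1.087) leaned to the father. The 217700 contigs with at most 10 mRNA counts outside the class had a pooled ratio of 0.899 and a median of 0.801. The lean to the mother was thus not particular to the class. With 1 library per parent there is no replicate check, and a difference between trees, sexes, dates or libraries cannot be told apart.

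A lean to the mother by a factor of at least 1.5 was seen in 410 members (17.1%), beside 19.2% of all 8375 contigs with at least 500 counts. A lean to the father of that size was seen in 81 (3.38%), beside 10.2%. The limits of 0.5 to 2 on members alone lower both shares, and nothing is read from them. Before those limits, 2666 contigs had at least 500 small RNA counts and at most 10 mRNA counts. Of these, 205 (7.69%) had a ratio below 0.5 and 67 (2.51%) a ratio above 2. Among the 5709 contigs with as much small RNA and over 10 mRNA counts, these shares were 4.66% and 5.94%. The contigs left out for imbalance thus lay mostly on the mother's side where mRNA was scarce, and slightly more often on the father's side where it was not.

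**Figure D3:**
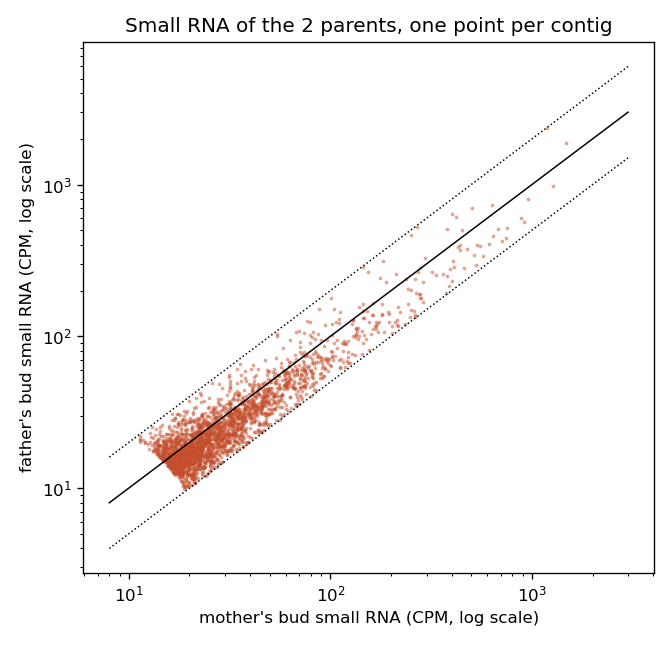
Bud small RNA of the father against that of the mother, in CPM on log scales, with 1 point for each of the 2394 contigs. The solid line marks equal CPM and the dotted lines the limits of 0.5 and 2; more points lie below the solid line (pooled ratio 0.861), and the topmost point, at 1191 and 2361 CPM, lies at the upper limit.

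The lean changed with abundance. The median ratio was 0.864 in the 1534 members with 500 to below 1000 counts, 0.831 at 1000 to below 2000, 0.783 at 2000 to below 5000, 0.722 in the 51 members at 5000 to below 10000, and 0.754 in the 39 with at least 10000. In the last group 11 members, among them the 2 most counted, had a ratio above 1. Length made little difference, with medians of 0.833 to 0.848 over the 5 length bins. The 674 members with 1 or 2 mRNA counts had a median ratio of 0.848 and the 751 with 6 to 10 counts one of 0.825.

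Contigs of like length that have mRNA were then set beside the class. Over 10 mRNA counts were found on 197733 contigs, of which 5104 met the same small RNA limits. The share was 2.58%, against 1.09% among contigs with at most 10 mRNA counts and 1.79% over all 417827 contigs counted for mRNA. The contigs with mRNA were much longer, with a median of 584 bases against 247, and a floor on counts is easier to reach on a longer contig. Weighted to the members' own length bins the share was 1.58% with over 10 mRNA counts and 1.19% with at most 10.

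Bin by bin the order changed. At 200 to below 250 bases 0.796% of contigs with at most 10 mRNA counts met the small RNA limits (exact binomial 95% interval 0.745% to 0.849%), against 1.59% with mRNA (1.41% to 1.79%). At 250 to below 300 bases the shares were 1.22% (1.13% to 1.32%) and 1.66% (1.47% to 1.85%). In these 2 bins the intervals did not overlap, and contigs with mRNA met the limits more often. At 300 to below 400 bases the shares were 1.45% (1.34% to 1.57%) and 1.51% (1.37% to 1.65%). At 400 to below 600 bases they were 1.76% (1.56% to 1.98%) and 1.505% (1.38% to 1.63%). At 600 to below 1000 bases they were 2.96% (1.84% to 4.49%), on 21 of 709 contigs, and 1.90% (1.77% to 2.04%). The intervals overlapped in these 3 bins. The intervals count each contig once, although contigs of one repeat or gene family may share reads.

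**Figure D4:**
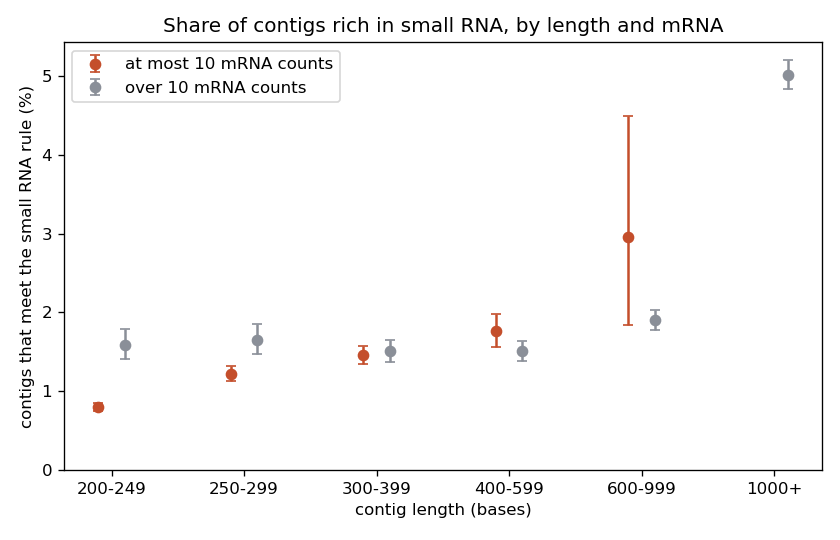
Share of contigs that meet the small RNA limits, in percent, by contig length in bases, for contigs with at most 10 and with over 10 mRNA counts. Bars are exact binomial 95% intervals; the points stand apart at 200 to below 250 bases (0.796% and 1.59%) and at 250 to below 300 bases, and no contig of 1000 bases or more had at most 10 mRNA counts.

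Finer steps of mRNA were taken at 200 to below 250 bases. The share was 1.34% at 1 mRNA count, 0.605% at 2, 0.870% at 3 to 5 and 1.15% at 6 to 10. It was 1.10% at 11 to 30 mRNA counts, 1.65% at 31 to 100 and 1.38% above that up to 1000. Above 1000 mRNA counts it was 7.66% (5.79% to 9.90%), on 53 of 692 contigs. The lowest share thus fell on contigs with 2 mRNA counts, 58529 of the 114316 in that bin, and the highest on the few short contigs with the most mRNA. At 250 to below 300 bases the share was 1.32% (1.08% to 1.60%) at 11 to 30 mRNA counts and 1.40% (1.08% to 1.79%) at 31 to 100, with intervals that overlapped the 1.22% (1.13% to 1.32%) of contigs with at most 10. It was 1.65% (1.30% to 2.06%) above that up to 1000 and 5.99% (4.52% to 7.76%) above 1000, on 53 of 885 contigs. At 300 to below 400 bases the share moved from 2.54% at 1 mRNA count to 1.31% at 6 to 10 and to 2.34% above 1000.

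Among contigs that met the limits, density was higher in those with mRNA at short lengths and alike at longer ones. At 200 to below 250 bases the members had a median of 3510 small RNA counts per kb and the 268 contigs with mRNA that met the limits 5270. At 250 to below 300 bases the medians were 2876 and 3668, at 300 to below 400 bases 2420 and 2985, at 400 to below 600 bases 1853 and 1847, and at 600 to below 1000 bases 1200 and 1275. Up to 759 bases, the length of the longest member, 1922 contigs with mRNA held 26.3% of all small RNA on 809757 bases, 10863 counts per kb as a whole, against 4918 in the class. Their median of 2650 was below the 2945 of the class, while the highest of them had 1584360 counts per kb. They were longer, with a median of 381.5 bases against 274, so these medians per kb are not at like length. The 10 of highest count held 28.1% of their small RNA, and without these 10 the whole stood at 7839 counts per kb, still above the class.

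The parents' balance showed the same split. Contigs with mRNA up to 759 bases had a median ratio of 0.865, close to the 0.841 of the class, but a pooled ratio of 1.27 against 0.861, or 1.16 without the 10 of highest count. By length, the medians with mRNA and in the class were 1.04 and 0.848 at 200 to below 250 bases, 0.967 and 0.841 at 250 to below 300, and 0.839 and 0.841 at 400 to below 600. At 10000 small RNA counts or more, 97 of 133 contigs with mRNA up to 759 bases (72.9%) had the higher CPM in the father, against 11 of 39 in the class (28.2%). The ratio was limited by the choice of both sets, so these values are a description.

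The few mRNA counts of the class were then followed by library. Every contig of the mRNA table had at least 1 count, so no member had 0. The members held 10606 mRNA counts in all, a mean of 4.43 and a median of 4 per contig. At 1 count there were 181 members, at 2 counts 493, at 3 counts 398, and the number fell from there to 106 at 10 counts. The other 217700 contigs with at most 10 mRNA counts averaged 4.04. The members were longer, with a median of 274 bases against 247, so the 2 means are not at like length. With at most 10 counts over all libraries no member could pass a usual count filter, and none was tested between the sexes.

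Per library, 150 to 1054 members had an mRNA count. In the mother 443 members (18.5%) had one and in the father 359 (15.0%). Of all 220094 contigs with at most 10 mRNA counts, 41862 had one in the mother and 34559 in the father. Of all members, 87 (3.63%) had a count in both parents, 356 in the mother alone, 272 in the father alone, and 1679 (70.1%) in neither tree. Among the other 217700 contigs with at most 10 mRNA counts, 11473 (5.27%) had a count in both parents. In the mother alone 29946 of them had one, and in the father alone 22727. The share in neither parent was 70.5%, close to that of the class, so nothing is read from it. A member's counts fell on a median of 2 libraries and at most 10. There were 550 members (23.0%) with counts in a single library, against 33.1% of the other contigs with at most 10 mRNA counts. The number of counts limits the number of libraries, and 30.7% of those others had exactly 2 counts, against 20.6% of members. At 2 counts the shares in a single library were 61.3% of members and 78.2% of the others, and at 3 counts 8.04% and 9.81%.

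The class summed to 40.5 to 204 mRNA CPM per library, with a median of 72.0. In the 8 usable male progeny the sum was 40.5 CPM at the lowest, 56.3 at the median and 126 at the highest, and in the 9 female progeny 49.7, 74.4 and 204. The male parent had 81.0 CPM and the female parent 103. The ranges overlapped between 49.7 and 126 CPM, and single libraries set both upper ends: without male progeny replicate 6 the highest male was at 78.0 CPM, and without female progeny replicate 2 the highest female was at 124 CPM. As these are bulk buds, fewer cells of a type and less RNA per cell cannot be told apart.

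The sum over all 220094 contigs with at most 10 mRNA counts moved beside it. It ran from 3782 to 8922 CPM in male progeny and from 4646 to 12086 CPM in female progeny, and was 8365 CPM in the father and 10162 CPM in the mother. The class took 0.906% to 1.41% of it in male progeny, 1.07% to 1.69% in female progeny, 0.968% in the father's library and 1.01% in the mother's. Members made up 1.09% of these contigs. Libraries with more mRNA on the class were thus mostly those with more mRNA on all rarely counted contigs. The part of library preparation or depth in this was not tested.

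**Figure D5:**
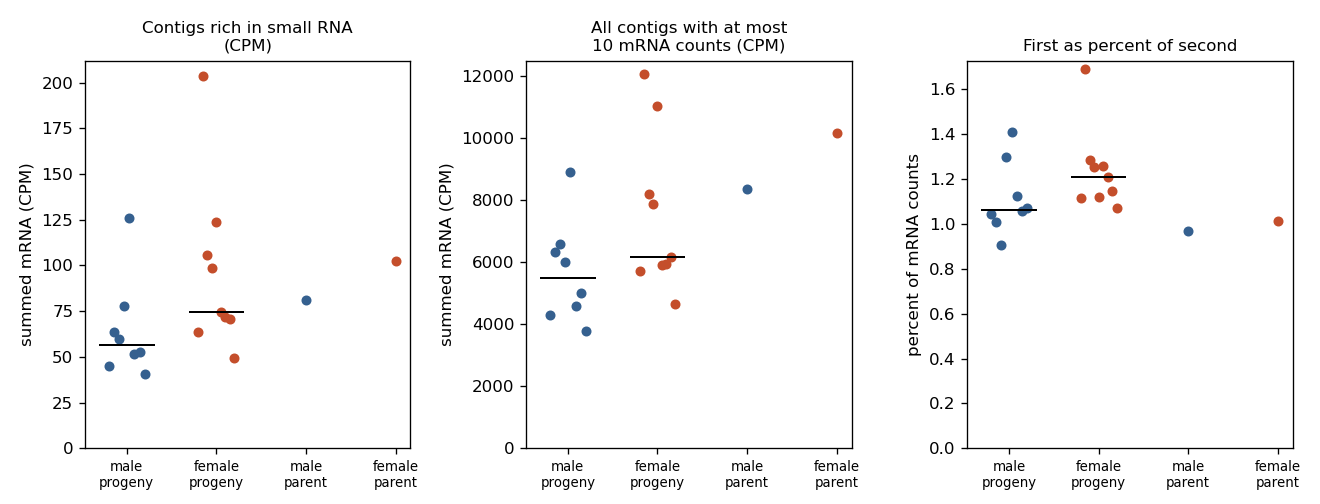
Summed mRNA of the class (left, CPM), of all contigs with at most 10 mRNA counts (middle, CPM) and the first as percent of the second (right), with 1 point per library and black lines at the medians of the progeny. Male progeny replicate 5 is left out; the highest points on the left are female progeny replicate 2 (204 CPM) and, among males, replicate 6 (126 CPM).

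Female libraries held 49.7% of the class's mRNA counts, 48.1% of those on the other rarely counted contigs and 42.8% of all mRNA counts. There were 504 members with counts in females alone and 471 with counts in males alone. Among the other rarely counted contigs the shares were 23.3% and 26.1%, against 21.1% and 19.7% in the class. Fewer counts fall more easily on a single sex, and these shares are not at like counts. Female progeny replicate 2 and male progeny replicate 6 together held 27.7% of the class's mRNA counts, 22.0% of those on the other rarely counted contigs and 15.8% of all mRNA counts. With either of these libraries left out of the mRNA sum the class had 2475 or 2533 members, all 2394 among them.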

How the data were processed

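The deposited values are raw counts of reads per contig, for bud mRNA in one table and bud small RNA, with contig length, in another. BWA, DESeq 1.14 and R 3.0.1 are listed in the submitters' processing notes. How reads were counted, on which strand, within which lengths and with several matches is not given in the sources used here, and reads shared by like contigs may be counted on any of them. The tables were joined by contig ID (417827 in both) with Python 3.11.15 and pandas 2.3.3. CPM used each library's whole table. Intervals are exact binomial, exact conditional for ratios and order-statistic for medians, computed with scipy 1.17.1. TMM and RLE factors came from edgeR 4.0.16. The selection and the ratio interval were tested on simulated data. The members, lists and alternatives were chosen with earlier results of these data known. No test between groups was made: the selection used the parents' small RNA ratio, with 1 library per parent, and the members' mRNA by sex is given as values only, since a p over members so chosen would not be independent. Named contigs were the 5 of highest count, the 5 densest, the 3 longest, the 3 richest with 10 mRNA counts (none had 0), and those nearest each limit. Trees are separate individuals. Flower small RNA was not analysed here.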

Additional observations from a re-analysis of the deposited data

Results flagged for a closer look

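In each group of progeny libraries 3 measures of the class were examined for an extreme value set apart by a wide gap. These were its mRNA CPM, its share of the mRNA counts on rarely counted contigs and its number of members with a count. They made 6 groups of values in all. Chance meets this criterion in about 1 of 20 groups, and 4 values met it. The 3 measures share the same counts, so the 6 groups are not independent and the 4 values are not set against that rate. Female progeny replicate 2 had 204 mRNA CPM on the class, where the other female progeny had 49.7 to 124. Its class also took 1.69% of the mRNA counts on rarely counted contigs, against 1.07% to 1.29%. Male progeny replicate 6, the deepest library, had 126 mRNA CPM on the class, where the other usable male progeny had 40.5 to 78.0, and 1054 members with a count, against 204 to 363.

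Outside the comparison, 52 contigs that met the small RNA limits were absent from the mRNA table, of 3299 such contigs. They were 201 to 367 bases long and held 62329 small RNA counts, 0.186% of the total, with a median of 3324 counts per kb and a pooled father over mother ratio of 0.893.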

How the results depend on the processing

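The class of 2394 contigs became 5528 with a small RNA floor of 250 counts, 860 with 1000 counts, 4962 with 1000 counts per kb, 4204 with mRNA summed over the parents alone and 790 with an mRNA ceiling of 10 counts per kb, a setting added after seeing the data like the leave-one-out ones; fewer or more contigs pass by construction. Its 10.4% of the small RNA became 13.7%, 7.30% and 13.1% with these floors, 6.32% and 13.8% with mRNA ceilings of 5 and 20 counts, 20.4% with the parents alone, 2.91% with the ceiling per kb, 11.8% with no limit on the ratio, 7.62% with a ratio of 2/3 to 1.5, 10.3% with TMM and 10.4% with RLE factors, 10.6% with absent contigs taken as 0 mRNA, and 9.48% without the 10 richest members. The median of 2945 counts per kb became 1620, 5734 and 1761 with the floors, 3048 and 2814 with ceilings of 5 and 20, 2580 with the parents alone and 3125 with the ceiling per kb. The pooled ratio of 0.861 was below 1 in every setting run. It was 0.872, 0.854 and 0.870 with the floors, 0.871 and 0.854 with the ceilings, 0.839 with the parents alone and 0.880 with the ceiling per kb. It was 0.840 with no limit, 0.899 with 2/3 to 1.5, 0.865 with TMM, 0.844 with RLE and 0.849 without the 10 richest. These settings use the same small RNA libraries and overlapping sets of contigs, so they give no independent check of the ratio. Without female progeny replicate 2 or male progeny replicate 6 the class had 2475 to 2533 members, 10.7% to 11.2% of the small RNA, a median of 2902 to 2914 counts per kb and a ratio of 0.859 to 0.860. With TMM factors 2390 members were shared with the class, and with RLE factors 2383. A ceiling of 0 mRNA counts left no contig, since the mRNA table lists none at 0. No paired analysis was possible because no test was made and the numbers given to trees do not pair them. Depth limits the mRNA side: a count of 0 in a usable library allows 0.196 to 0.851 CPM (3 counts).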

Other observations

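The mRNA counts of the class came often in twos. Of 6685 values above 0 in a member and a library, 55.2% were 1 and 36.0% were 2, against 4.95% at 3 and 3.20% at 4. Among the other rarely counted contigs 51.3% were 1 and 40.3% were 2. Over all libraries, 30.7% of those contigs had exactly 2 counts and 5.37% had 1, against 20.6% and 7.56% of the class. Whether the mates of a pair were counted apart is not given in the sources used here, and a ceiling of 10 counts may stand for fewer fragments than counts.

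Contig numbers, which the choice did not use, set the rarely counted contigs apart from those with mRNA. Of contigs with at most 10 mRNA counts 41.5% had a number below 100000, against 4.28% of those with over 10. In the class the share was 20.3%, and in the 5104 contigs with mRNA that met the small RNA limits 1.31%. What orders the numbers is not given in the sources used here. Contigs with at most 10 mRNA counts were also shorter, with a median of 247 bases against 584, and the shares were not compared at like length.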
